A study of Mus musculus with 4 samples.

Results

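The genes described here make cholesterol and fatty acids, sense and move sterols, and turn cholesterol into oxysterols. Of 40 listed genes, 35 had an array row annotated to exactly 1 gene symbol, out of 14860 genes with such a row. Acat2, Idi1, Soat1, Nr1h2 and Tm7sf2 had none and were not analysed here. Spleens of C57BL/6 mice gave the naive CD4 T cells, with a stated purity above 90%, and these were activated with beads carrying antibodies to CD3 and CD28. The medium held TGF-β1 (5 ng/ml), IL-6 (20 ng/ml), IL-23 (20 ng/ml) and blocking antibodies to IFN-γ and IL-4 (10 μg/ml each), conditions that direct helper T cells to the IL-17-producing TH17 type. Some cultures received 150 nM JQ1, an inhibitor that keeps BET bromodomain proteins from binding acetylated histones, and the others its solvent DMSO. RNA from 2 JQ1 samples and 2 DMSO samples, all labelled 48 hours, was read on Affymetrix exon arrays, which give 1 log2 signal per row and array. The labels also mention a stimulation of 4 days, and do not state if a replicate is a mouse, a culture or an extract, so the spread behind the tests below may be technical.

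Cholesterol is built from acetyl-CoA by way of mevalonate, squalene and lanosterol, and fatty acids by carboxylation of acetyl-CoA followed by chain extension and desaturation. Genes of both routes are switched on by the SREBP transcription factors, which the SCAP protein carries out of the endoplasmic reticulum when sterols are scarce and which the INSIG proteins hold back when sterols are plentiful. Liver X receptors sense oxysterols and switch on genes of sterol export. Activated T cells raise lipid synthesis to build membrane.

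At an unadjusted p below 0.05 a few enzymes scattered over both routes read lower with JQ1, and none passed after adjustment. For the other measured genes of the list no difference was detected with 2 arrays in each group, which does not show that they were unchanged. The clearest difference was that of squalene synthase (Fdft1, 1.78-fold lower). The sterol dehydrogenase Nsdhl (1.71-fold lower), the lanosterol demethylase Cyp51 (1.44-fold lower) and the fatty acid elongase Elovl6 (1.71-fold lower) followed. Their changes moved more than that of Fdft1 when an array was left out. The desaturase gene Scd1 was lower too, but under a dim reference on all 4 arrays, so no fold is given for it. The JQ1 mean of Elovl6 also lay under that reference, which limits its fold. None of the 35 genes passed in limma with p adjusted by Benjamini-Hochberg across the 14860 genes, where the smallest adjusted p among them was 0.227, for Fdft1. Over all genes 1 passed (0.00673%), the granzyme gene Gzmb. At an unadjusted p below 0.05, a looser call used here only to describe, these 5 of the 35 genes (14.3%) were lower with JQ1, against 8.26% of all genes, and 0 were higher, against 1.72%. Among genes brighter than the dim reference the shares were 11.0% lower and 1.49% higher, and of the 28 listed genes whose mean over the 4 arrays was above it 4 were lower (14.3%) and 0 higher. After cyclic loess, a smoothing that removes a trend of the change with signal, 4 of the 35 were lower, against 5.42% of all genes. The difference of the members' shares from those of all genes was not tested. That reference, a mean log2 signal of 5.80, is a level that 95% of 799 vomeronasal and olfactory receptor genes did not exceed, and was chosen after the data were seen.

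**Figure D1:**
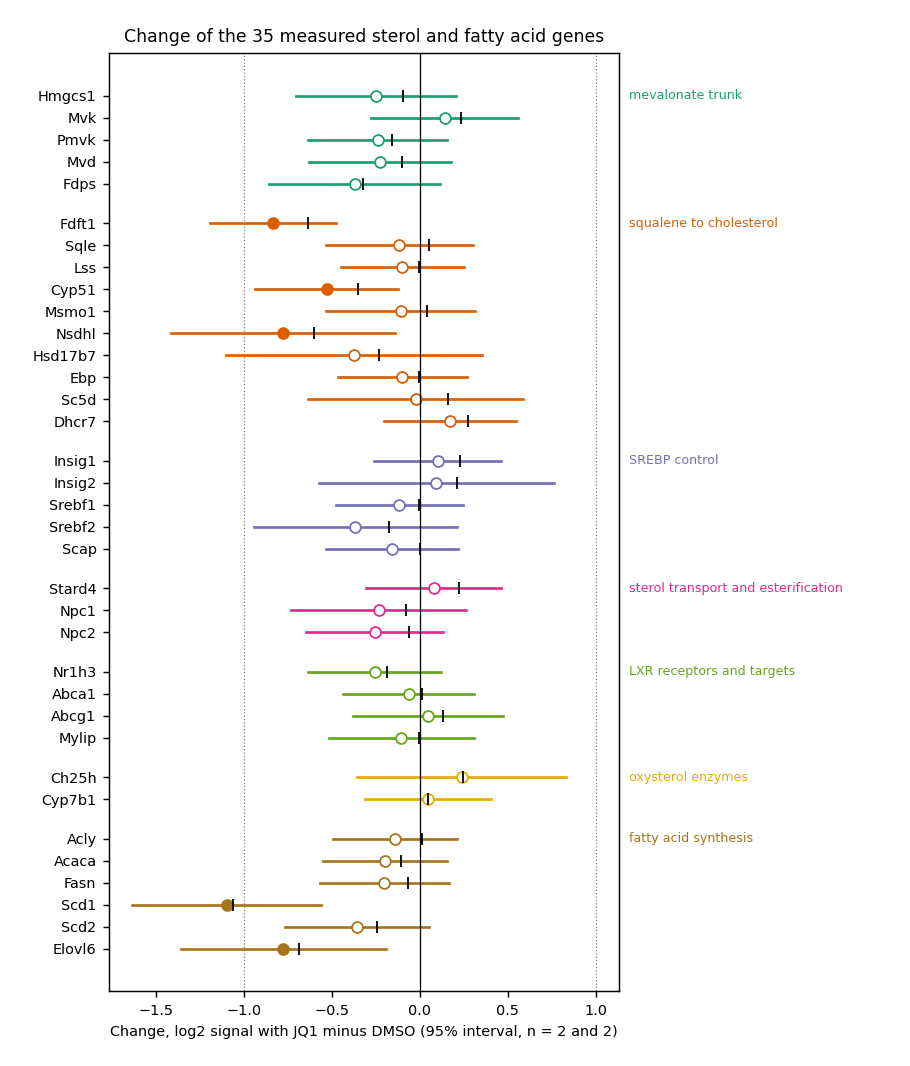
Change of each measured gene (horizontal axis, log2 signal with JQ1 minus DMSO) with its 95% interval from limma, n = 2 and 2, grouped and coloured by role. Filled points had an unadjusted p below 0.05, black ticks give the change after cyclic loess, and dotted lines mark a 2-fold change. The 5 filled points, Fdft1, Cyp51, Nsdhl, Scd1 and Elovl6, stand to the left of the open points, which run from -0.37 (Hsd17b7) to 0.24 (Ch25h).

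Most of the 35 genes lay lower with JQ1, and so did most genes on the arrays. The median change of the 35 genes was -0.16, against -0.09 for all genes and -0.12 for genes above the dim reference, and 27 of the 35 had a change below 0, against 66.2% of all genes. In all genes the median change moved with the signal, from 0.0014 at a mean signal up to 4 to -0.20 above 9. After cyclic loess the median of the 35 genes was -0.0055 and that of all genes 0.0035. Both JQ1 arrays lay below both DMSO arrays for 18 of the 35 genes (51.4%), against 31.4% of all genes and 38.2% of those above the dim reference. They lay above for 2, Dhcr7 and Insig1, against 10.0% and 9.56%. After cyclic loess these counts were 11 lower (31.4%), against 19.8% of all genes, and 4 higher (11.4%), against 20.4%. In bulk RNA, fewer cells of a type and less RNA per cell cannot be told apart.

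**Figure D2:**
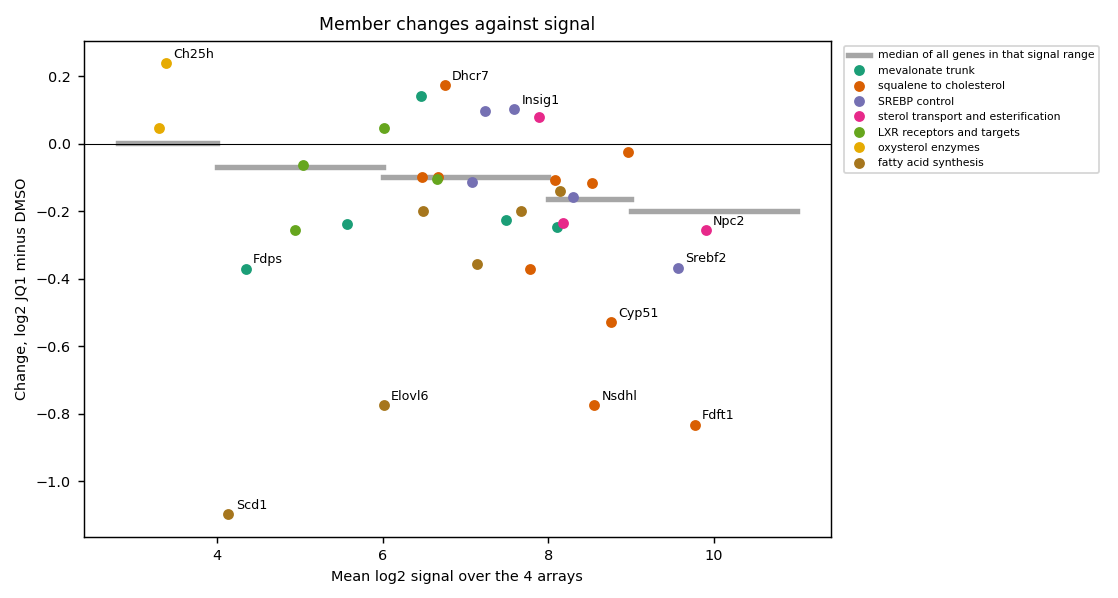
Change of each measured gene (vertical axis, log2 signal with JQ1 minus DMSO) against its mean log2 signal over the 4 arrays, coloured by role. Grey bars are the median change of all genes in ranges of signal, from 0.0014 for the dimmest to -0.20 for the brightest. Fdft1, Nsdhl, Cyp51, Elovl6 and Scd1 lie far below the grey bars.

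The arrays themselves differed within each group in a way that touches these genes. DMSO replicate 1 was above DMSO replicate 2 for 30 of the 35 genes, with a median difference of 0.16, against 59.8% of all genes and a median of 0.07. JQ1 replicate 1 was above JQ1 replicate 2 for 11 of the 35, with a median difference of -0.06, against 45.5% of all genes and a median of -0.03. Averaged over the 35 genes, the log2 signal was 7.24 and 7.08 on the DMSO arrays and 6.90 and 7.0 on the JQ1 arrays. Its order, DMSO replicate 1 first and JQ1 replicate 1 last, was also that of all 14860 genes, at 6.23, 6.17, 6.08 and 6.11. The part of these array differences in the changes below was not tested. The 7 measured genes listed for CD4 T cells, which are Cd4 and general T cell genes, read between 8.64 and 11.38 on every array. Of the 7, 1, Thy1, was lower with JQ1 at an unadjusted p below 0.05 (10.77 and 10.39 with DMSO, 9.70 and 10.03 with JQ1).

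The markers of TH17 cells were lower with JQ1 as well. All 5 measured were lower at an unadjusted p below 0.05, against 8.26% of all genes, with changes from -3.41 to -0.83 and both JQ1 arrays below both DMSO arrays for each, and none passed after adjustment (smallest limma adjusted p = 0.0901, for Il17f). The cytokine gene Il17f read 11.51 and 11.17 with DMSO and 7.65 and 8.22 with JQ1 (log2 change -3.41, SE 0.24). The chemokine receptor gene Ccr6 read 8.80 and 8.64 with DMSO and 6.41 and 5.67 with JQ1. The mean log2 signal of the 5 markers was 8.38 and 8.29 with DMSO and 6.49 and 6.36 with JQ1. The part of this shift in the changes of the sterol and fatty acid genes was not tested.

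**Figure D3:**
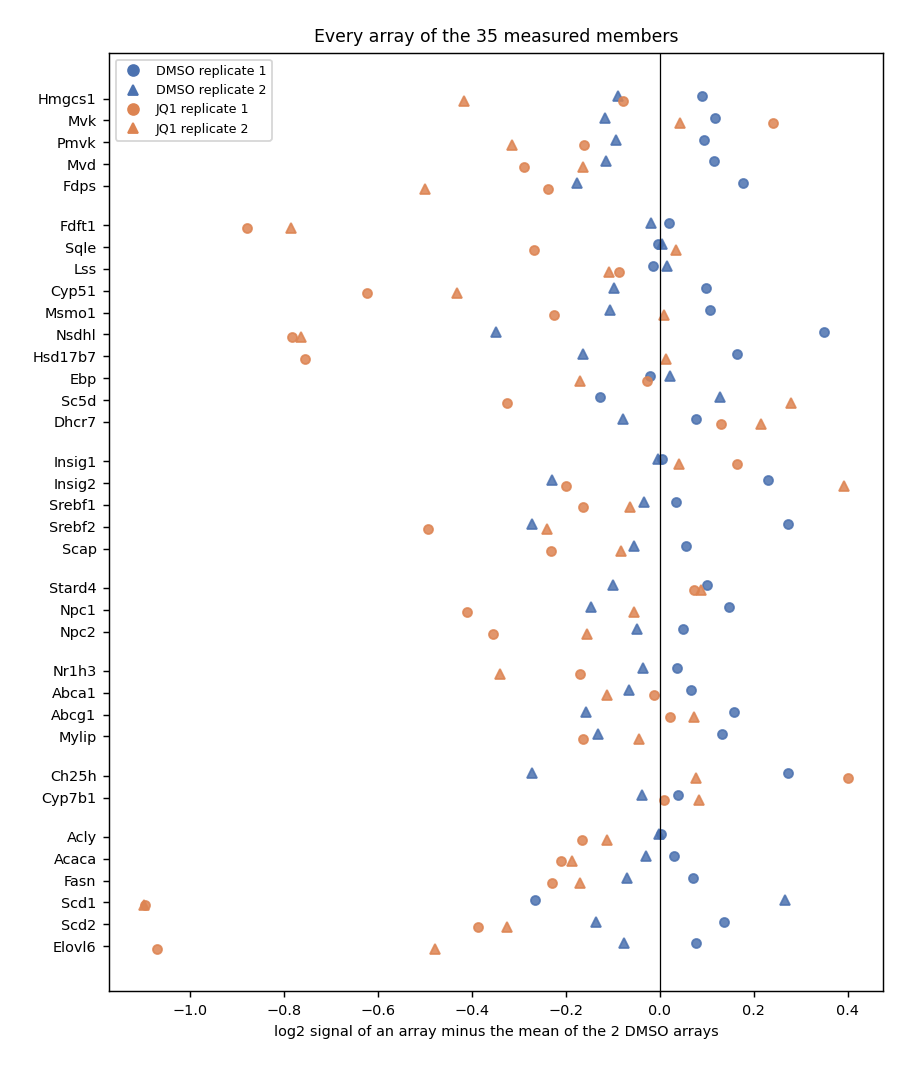
log2 signal of every array, as its difference from the mean of the 2 DMSO arrays (horizontal axis), for the 35 measured genes in pathway order. Blue marks DMSO, orange JQ1, circles replicate 1 and triangles replicate 2. For Fdft1, Cyp51, Scd1 and Elovl6 the JQ1 arrays stand clear of the DMSO arrays, and for Sqle, Sc5d and Insig2 the groups overlap.

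The enzymes of the mevalonate trunk, which lead from acetyl-CoA to farnesyl diphosphate, had changes from -0.37 to 0.14. None of the 5 measured had an unadjusted p below 0.05, and their median change was -0.24, or -0.10 after cyclic loess. Hmgcs1, which condenses acetyl-CoA and acetoacetyl-CoA, read 8.32 and 8.14 with DMSO and 8.15 and 7.81 with JQ1. Its groups overlapped, because JQ1 replicate 1 matched DMSO replicate 2. Mvk, the mevalonate kinase, read 6.50 and 6.27 with DMSO and 6.63 and 6.43 with JQ1, also with overlapping groups. Mvd, the decarboxylase that makes isopentenyl diphosphate, read 7.72 and 7.49 with DMSO and 7.31 and 7.44 with JQ1, a narrow gap between groups (log2 change -0.23, SE 0.16). The phosphomevalonate kinase Pmvk (-0.24, SE 0.16) and the farnesyl diphosphate synthase Fdps (-0.37, SE 0.19) had both JQ1 arrays below both DMSO arrays, but at mean signals under the dim reference in both groups.

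From farnesyl diphosphate onward, 3 of the 10 measured enzymes had an unadjusted p below 0.05, all lower with JQ1. This stands against 8.26% of all genes and 11.0% of those above the dim reference, where all 10 lay. The 3 enzymes were not neighbours in the route. After cyclic loess they were 2, Fdft1 and Cyp51, against 5.42% of all genes. Fdft1 joins farnesyl units into squalene, the step that commits carbon to sterols. It read 10.20 and 10.17 with DMSO and 9.31 and 9.40 with JQ1, the largest change relative to its SE among the 35 genes (log2 change -0.83, SE 0.14, 95% interval -1.19 to -0.47, limma adjusted p = 0.227). With any 1 array left out its change stayed between -0.88 and -0.78 and its unadjusted p below 0.05, and after cyclic loess it was -0.64. Cyp51, the cytochrome P450 that removes a methyl group from lanosterol, read 9.12 and 8.92 with DMSO and 8.40 and 8.59 with JQ1 (log2 change -0.53, SE 0.16, interval -0.93 to -0.12, limma adjusted p = 0.403). Its groups did not overlap. The change was -0.35 after cyclic loess and -0.43 without DMSO replicate 1 or without JQ1 replicate 1, where the unadjusted p was no longer below 0.05. Nsdhl, which takes part in removing the methyl groups at carbon 4 of the sterol ring, read 9.29 and 8.59 with DMSO and 8.16 and 8.17 with JQ1 (log2 change -0.77, SE 0.25, interval -1.41 to -0.14, limma adjusted p = 0.426). The DMSO arrays were far apart, and without DMSO replicate 1 the change was -0.42 and the unadjusted p no longer below 0.05. The same loss was seen without JQ1 replicate 1 (-0.77), without JQ1 replicate 2 (-0.78), after quantile normalization (-0.57) and after cyclic loess (-0.60).

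The enzymes between and after these had changes from -0.37 to 0.17, none with an unadjusted p below 0.05. Sqle, the squalene epoxidase that follows Fdft1, read 8.59 on both DMSO arrays and 8.32 and 8.62 with JQ1, so the groups overlapped (log2 change -0.12, SE 0.17). Lss, the cyclase that makes lanosterol, read 6.51 and 6.54 with DMSO and 6.44 and 6.42 with JQ1, a narrow gap with no overlap (log2 change -0.10, SE 0.14). Msmo1, the methyl oxidase that works beside Nsdhl, read 8.24 and 8.02 with DMSO and 7.90 and 8.14 with JQ1. Its groups overlapped, as did those of Hsd17b7, the reductase of the same demethylation (log2 change -0.37, SE 0.29, interval -1.10 to 0.35). For Hsd17b7, JQ1 replicate 1 (7.21) was low and JQ1 replicate 2 (7.97) lay among the DMSO arrays (8.13 and 7.80). With 1 array left out its change ran from -0.76 to 0.01, so its size is not settled. The isomerase Ebp was at -0.10 (SE 0.15) and the desaturase Sc5d at -0.02 (SE 0.24). Dhcr7, which makes cholesterol from its last precursor, read 6.74 and 6.58 with DMSO and 6.79 and 6.88 with JQ1, both JQ1 arrays above both DMSO arrays (log2 change 0.17, SE 0.15, limma adjusted p = 0.752). The signs of Sqle, Msmo1 and Sc5d turned positive under each of 3 other scalings, and those of Lss and Ebp under quantile normalization and median centring.

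**Figure D4:**
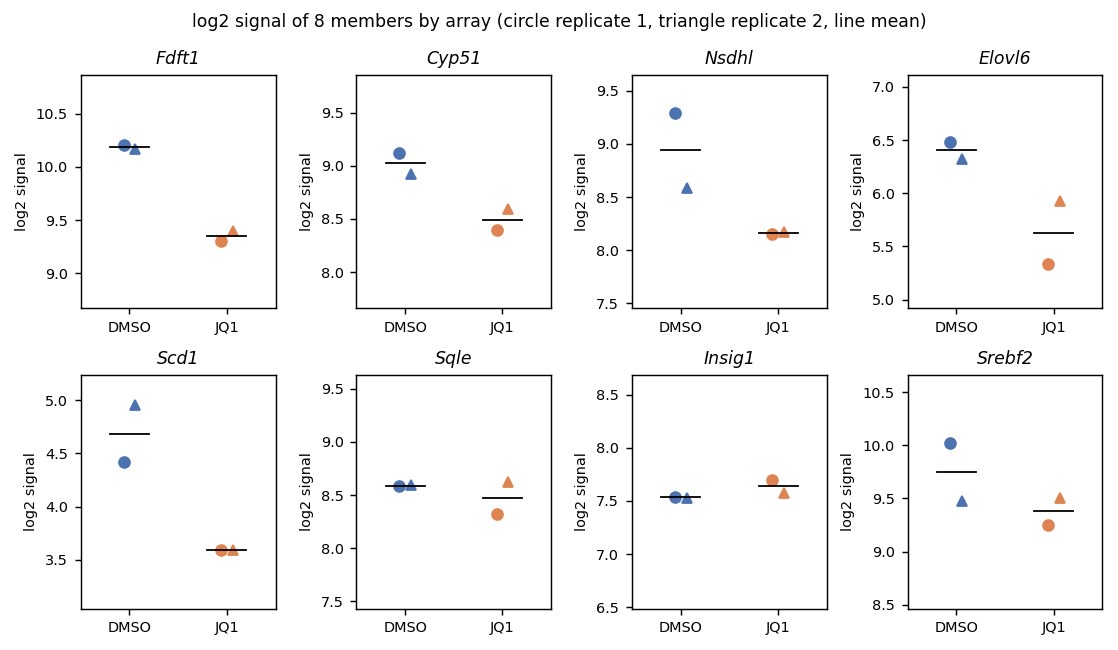
log2 signal (vertical axes, each spanning the same number of units) of 8 genes by group, with circles for replicate 1, triangles for replicate 2 and lines for the group mean, n = 2 each. Fdft1, Cyp51, Nsdhl, Elovl6 and Scd1 have both JQ1 arrays below both DMSO arrays, Insig1 has them above, and Sqle and Srebf2 overlap.

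Promoter sequences of 3 of these 5 genes are shown because a shared control element is the textbook feature of SREBP target genes. They are the 250 bases before the gene start, 5′ to 3′ on the gene's strand, from RefSeq on GRCm38.p6. Cyp51 lies at chr5:4104698-4104947, minus strand, Nsdhl at chrX:72918271-72918520, plus strand, and Elovl6 at chr3:129532136-129532385, plus strand. For comparison, Hmgcs1 (chr13:119690101-119690350, plus strand) and Insig1 (chr5:28071162-28071411, plus strand) are SREBP target genes with smaller changes here. Capitals mark matches on either strand to TCACNCCAC (a form of the sterol regulatory element that SREBP binds), CACGTG (an E-box), CCAAT (the NF-Y box) and GGGCGG (the GC box of SP1).
Cyp51: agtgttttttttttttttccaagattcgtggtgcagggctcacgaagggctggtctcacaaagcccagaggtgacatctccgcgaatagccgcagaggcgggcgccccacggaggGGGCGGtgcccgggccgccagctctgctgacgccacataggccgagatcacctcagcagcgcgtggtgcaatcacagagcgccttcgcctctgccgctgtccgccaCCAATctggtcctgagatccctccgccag
Nsdhl: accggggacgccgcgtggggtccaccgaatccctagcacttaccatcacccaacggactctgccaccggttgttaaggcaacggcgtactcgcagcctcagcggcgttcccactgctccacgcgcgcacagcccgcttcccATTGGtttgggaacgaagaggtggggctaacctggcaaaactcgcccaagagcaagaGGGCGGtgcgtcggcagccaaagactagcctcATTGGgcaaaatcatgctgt
Elovl6: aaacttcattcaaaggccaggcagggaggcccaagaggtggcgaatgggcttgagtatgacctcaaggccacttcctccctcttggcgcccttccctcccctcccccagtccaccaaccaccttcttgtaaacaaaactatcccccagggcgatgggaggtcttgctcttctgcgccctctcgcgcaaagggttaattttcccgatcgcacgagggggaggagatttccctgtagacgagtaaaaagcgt
Hmgcs1: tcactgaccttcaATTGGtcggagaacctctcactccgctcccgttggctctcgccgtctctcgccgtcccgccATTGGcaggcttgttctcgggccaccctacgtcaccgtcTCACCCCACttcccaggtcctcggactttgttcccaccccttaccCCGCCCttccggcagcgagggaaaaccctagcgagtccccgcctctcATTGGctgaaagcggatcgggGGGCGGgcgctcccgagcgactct
Insig1: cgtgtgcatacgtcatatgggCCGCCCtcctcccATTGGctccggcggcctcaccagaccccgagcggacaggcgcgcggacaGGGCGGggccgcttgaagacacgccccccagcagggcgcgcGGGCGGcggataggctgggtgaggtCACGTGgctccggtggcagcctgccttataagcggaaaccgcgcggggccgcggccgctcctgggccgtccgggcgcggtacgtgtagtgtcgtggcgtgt
The Cyp51 window held 1 CCAAT and 1 GGGCGG match, that of Nsdhl 2 and 1, and that of Elovl6 none of the 4 motifs. The Hmgcs1 window held the sterol element once, from base -137 to base -129 relative to the gene start, with 3 CCAAT and 2 GGGCGG matches. That of Insig1 held 1 CACGTG, 1 CCAAT and 3 GGGCGG matches, and no matches overlapped in these 5 windows. Other forms of the sterol element were not searched, so a window without a match to TCACNCCAC may still hold one.

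Of the measured genes 26 had a promoter entry, and Fdft1 and Scd1 had none. The counts of motifs were not split by whether the signal changed. CCAAT was found in 19 of 26 (73.1%), against 39.7% of 11894 array genes with an entry and 33.8% of all 32851 promoter windows. GGGCGG was found in 20 of 26 (76.9%), against 53.0% of array genes and 32.7% of windows. CACGTG was found in 6 of 26, in Abca1, Dhcr7, Hsd17b7, Insig1, Sc5d and Scap, against 8.63% of array genes and 6.02% of windows. TCACNCCAC was found in 1 of 26, Hmgcs1, against 1.23% of array genes and 1.05% of windows. A gene with several windows was counted when any of them matched, and a match describes letters only.

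The genes that control SREBP had no unadjusted p below 0.05, and their median change was -0.11, or 0.0047 after cyclic loess. Insig1, itself an SREBP target whose protein holds SREBP back, read 7.54 and 7.53 with DMSO and 7.70 and 7.58 with JQ1, with both JQ1 arrays above both DMSO arrays. Its change was 0.10 (SE 0.14) with an interval from -0.26 to 0.46, so a change of 2-fold in either direction lay outside it. Insig2 read 7.42 and 6.96 with DMSO and 6.99 and 7.58 with JQ1, so the groups overlapped. With 1 array left out the change of Insig2 ran from -0.20 to 0.39, so its sign is not settled. Srebf2, which encodes the SREBP of the sterol route, read 10.02 and 9.47 with DMSO and 9.25 and 9.51 with JQ1 (log2 change -0.37, SE 0.23). DMSO replicate 1 stood above the other 3 arrays, and the change was -0.09 without it and -0.64 without DMSO replicate 2. Srebf1, which encodes the SREBP of the fatty acid route, was at -0.11 (SE 0.14) and Scap at -0.16 (SE 0.15), each with both JQ1 arrays just below both DMSO arrays and each with a sign that turned positive under some other scalings.

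Genes of sterol traffic had changes from -0.26 to 0.08. Npc2, which hands cholesterol over inside lysosomes, read 10.08 and 9.98 with DMSO and 9.67 and 9.87 with JQ1 (log2 change -0.26, SE 0.15, or -0.06 after cyclic loess). Npc1, its membrane partner that exports cholesterol from lysosomes, read 8.43 and 8.14 with DMSO and 7.88 and 8.23 with JQ1, with overlapping groups. Stard4, a soluble sterol carrier and SREBP target, was at 0.08 (SE 0.15), also with overlapping groups.

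The liver X receptor gene Nr1h3 and its target genes had no unadjusted p below 0.05. Nr1h3 read 5.10 and 5.03 with DMSO and 4.90 and 4.73 with JQ1, both groups under the dim reference (log2 change -0.26, SE 0.15). Abcg1, a sterol exporter, read 6.16 and 5.84 with DMSO and 6.02 and 6.07 with JQ1, with both JQ1 arrays between the DMSO arrays. The exporter Abca1 was at -0.06 (SE 0.15), under the dim reference in both groups, and Mylip, a ubiquitin ligase that curbs sterol uptake, at -0.10 (SE 0.16). The oxysterol enzymes lay under the dim reference on every array. Ch25h, the cholesterol 25-hydroxylase, read 3.54 and 3.0 with DMSO and 3.67 and 3.35 with JQ1. Cyp7b1, which acts on 25-hydroxycholesterol next, read 3.31 and 3.23 with DMSO and 3.28 and 3.36 with JQ1. The groups of both overlapped, and at such signals a difference was not detectable.

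In the fatty acid route, both JQ1 arrays lay below both DMSO arrays for all 6 measured genes, against 31.4% of all genes and 38.2% of those above the dim reference, and for Acly, Acaca and Fasn by a small margin. After cyclic loess this held for 4, Acaca, Scd1, Scd2 and Elovl6, against 19.8% of all genes. Acly, which makes cytosolic acetyl-CoA from citrate, read 8.22 and 8.21 with DMSO and 8.05 and 8.10 with JQ1 (log2 change -0.14, SE 0.14). Acaca, the acetyl-CoA carboxylase, read 6.62 and 6.56 with DMSO and 6.38 and 6.40 with JQ1 (-0.20, SE 0.14). Fasn, the fatty acid synthase, read 7.84 and 7.70 with DMSO and 7.54 and 7.60 with JQ1 (-0.20, SE 0.15). After cyclic loess the changes of these 3 genes were 0.02, -0.10 and -0.07, so that the sign of Acly turned. The median of the 6 genes was -0.28, or -0.17 after cyclic loess.

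The enzymes that lengthen and desaturate fatty acids differed more. Elovl6, which extends palmitate to stearate, read 6.48 and 6.33 with DMSO and 5.33 and 5.92 with JQ1 (log2 change -0.77, SE 0.23, interval -1.36 to -0.19, limma adjusted p = 0.397). The JQ1 arrays were far apart and their mean, 5.63, lay under the dim reference. Without JQ1 replicate 1 the change was -0.48 and the unadjusted p no longer below 0.05, as also without DMSO replicate 1 (-0.70). Scd1, which makes oleate from stearate, read 4.42 and 4.95 with DMSO and 3.59 on both JQ1 arrays (log2 change -1.10, SE 0.21, interval -1.63 to -0.56, limma adjusted p = 0.270). All 4 values lay under the dim reference, so the size of this change says little. With any 1 array left out the change stayed between -1.36 and -0.83. Scd2, a paralog of the same activity, read 7.45 and 7.18 with DMSO and 6.93 and 6.99 with JQ1 (log2 change -0.36, SE 0.16, limma adjusted p = 0.538). Scd1 and Scd2 belong to a family of similar genes, and signal shared between their rows was not tested.

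For 30 of the 35 genes the 95% interval lay inside a 2-fold change in either direction, close to the 86.2% of all genes. The other 5 were Fdft1, Nsdhl, Hsd17b7, Scd1 and Elovl6. For the 30 genes a change of signal as large as 2-fold lay outside the interval, and Cyp51 was the only one of them with an unadjusted p below 0.05. Fdps, Pmvk, Nr1h3, Abca1, Ch25h and Cyp7b1 are among the 30 but lay under the dim reference in both groups. For these the interval bounds the array signal and says little about the transcript.

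Related genes outside the list were looked at in the same way. Of 83 other measured genes of sterol, oxysterol, isoprenoid and fatty acid metabolism, 12 (14.5%) were lower at an unadjusted p below 0.05, against 8.26% of all genes and 11.0% of those above the dim reference. Of the 83, 1 (1.20%) was higher, against 1.72% of all genes, and none passed after adjustment (smallest limma adjusted p = 0.362). Their median change was -0.12, or -0.05 after cyclic loess, against -0.12 and 0.0040 for genes above the dim reference. The shares of the shorter lists that follow stand against the same 8.26% and 11.0%, with few genes in each, and were not tested. Of 11 further genes of sterol synthesis, uptake and SREBP processing, 2 were in that call, Erlin2 (-0.50, SE 0.17), which encodes a lipid raft protein of the endoplasmic reticulum, and Idi2 (-1.21, SE 0.42), whose DMSO arrays read 6.77 and 5.61. Of 18 genes of oxysterols and liver X receptors, 3 were in it and all lower. They were the phospholipid transfer protein Pltp (-0.95, SE 0.24), a liver X receptor target, the oxysterol-binding protein relative Osbpl3 (-0.59, SE 0.23), and Gpr183 (-0.49, SE 0.18), the receptor through which oxysterols made by Ch25h and Cyp7b1 guide cells. Gpr183 read 8.02 and 8.11 with DMSO and 7.75 and 7.41 with JQ1.

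Of 27 further genes of fatty acid and lipid synthesis, 3 were lower at that level, the elongase Elovl1 (-0.64, SE 0.16), the acyl-CoA synthetase Acsl5 (-0.69, SE 0.19) and Hsd17b12 (-0.46, SE 0.16), an enzyme of the elongation cycle. Of 15 genes of fatty acid oxidation, 4 were lower (26.7%), against 8.26% of all genes and 11.0% of those above the dim reference, where 13 of the 15 lay. They were the isomerases Eci2 (-0.58, SE 0.15) and Eci1 (-0.54, SE 0.17), the thiolase Acaa2 (-0.79, SE 0.23) and the carnitine transferase Cpt2 (-0.51, SE 0.15). The nuclear receptor gene Ppard (0.37, SE 0.15) was higher. The median changes were -0.12 for the synthesis genes and -0.28 for the oxidation genes, or -0.03 and -0.15 after cyclic loess. None of the 10 genes of the isoprenoid branch, which uses the same farnesyl diphosphate as Fdft1, was in that call. Neither of 2 genes of sterol ester breakdown was in it. The medians of these lists were 0.0071 and 0.07, or 0.12 and 0.18 after cyclic loess. The largest changes of the isoprenoid branch were those of Nus1 (-0.26, SE 0.17) and Icmt (-0.25, SE 0.16). The genes of sterol ester breakdown were Nceh1 (0.12, SE 0.30) and Lipa (0.02, SE 0.14).

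**Figure D5:**
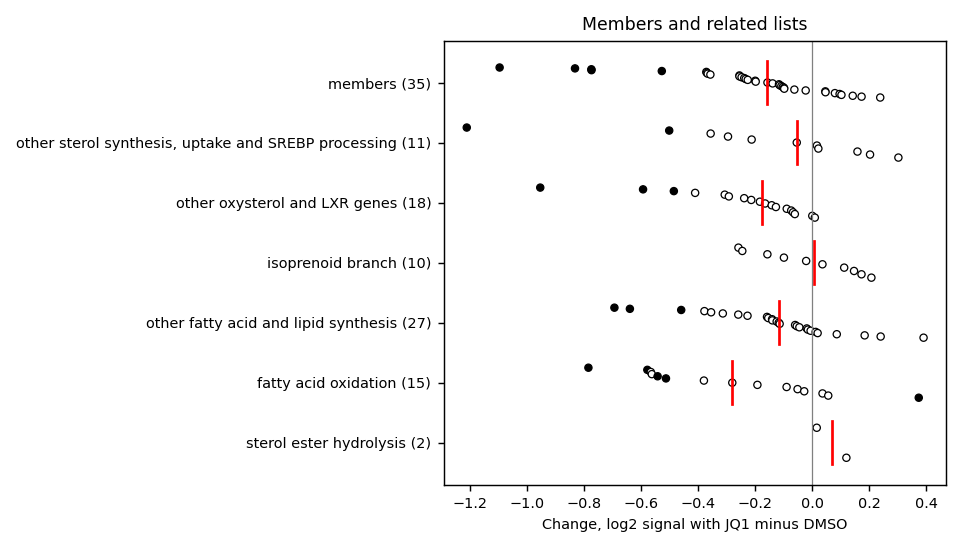
Change of single genes (horizontal axis, log2 signal with JQ1 minus DMSO) in the members and in 6 related lists, with the number measured in brackets. Filled points had an unadjusted p below 0.05 and red lines mark the median, which was -0.16 for the members and 0.0071 for the isoprenoid branch.

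Markers of other cells were looked at because macrophages handle much sterol. Of 5 measured macrophage and monocyte genes, 4 were under the dim reference on every array and the other, Cd68, read between 6.20 and 6.65, and none had an unadjusted p below 0.05. Their mean log2 signal was 5.26 and 5.05 with DMSO and 5.14 and 5.06 with JQ1. None of 5 B cell, 5 dendritic cell and 2 erythroid genes was in that call either. Of 4 neutrophil genes 1 was, as higher, and the mean of the 4 was 5.43 and 6.38 with DMSO and 6.77 and 6.50 with JQ1. S100a9 read 5.89 and 7.88 with DMSO and 9.07 and 8.42 with JQ1. S100a8 was at 1.19 (SE 0.60) with overlapping groups. The other neutrophil genes did not rise alike: Elane was at 0.07 (SE 0.17), and Mpo at -0.20 (SE 0.16) with both JQ1 arrays below both DMSO arrays. Of 3 natural killer genes Klrd1, a receptor subunit, was in the call as lower and read 6.88 and 6.60 with DMSO and 4.70 and 5.33 with JQ1, and of 2 CD8 T cell genes Cd8a was, at 6.04 and 6.18 against 5.15 and 5.61. The part of such cells in the changes of the sterol and fatty acid genes was not tested.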

How the data were processed

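Mouse CD4 T cells under TH17 conditions were measured on 4 arrays (2 JQ1, 2 DMSO), grouped by their titles. The titles call the DMSO samples untreated and the JQ1 samples BETi. The authors deposited log2 values, made with RMA and Affymetrix Expression Console per the submitters' processing notes. RMA subtracts background, equalises the distributions of the arrays and combines the probes of each row, so a shift shared by most genes is partly removed. Their versions and settings are not stated, and the notes name hg19, a human build, so no coordinates come from the values. Of 23332 rows, 14996 carried 1 gene symbol in the platform annotation, 1019 several and 7317 none. Where a gene had more rows (135 genes), that of the highest mean stood for it, giving 14860 genes. Of the 14996 rows, 14941 matched RefSeq (GRCm38.p6) by Entrez identifier.

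Changes are JQ1 minus DMSO, fitted with limma 3.58.1 in R 4.3.3 (lmFit, eBayes, two-sided, degrees of freedom 2 residual and 3.43 prior). Benjamini-Hochberg adjustment ran over all genes, with a threshold of 0.05. SE is limma's moderated one and intervals are at 95%. The number of arrays limits the precision. The fit was tested on simulated data with independent noise and no array shift or trend with signal. That test cannot tell how the fit behaves under the shifts and the trend of these arrays. Alternatives were a variance trend, a robust prior, quantile normalization, median centring, cyclic loess, a filter on signal at the 25th percentile or the median, the mean of a gene's rows, each array left out, a block on the replicate number and other thresholds. The members and lists were chosen with earlier results of these data known. All measured members are named, with up to 4 genes of each other list by unadjusted p, or up to 2 by size where none was below 0.05, plus Gzmb, Gpr183 and marker genes. Some genes of these routes are not reported here. Motifs were searched in the 250 bases before each RefSeq gene start. Python 3.11.15 with matplotlib 3.10.9 drew the figures.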

Additional observations from a re-analysis of the deposited data

How the results depend on the processing

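None of the 35 genes passed over all genes in the fit as reported or in any alternative run, and the smallest adjusted p, for Fdft1 with the filter at the median of signal, was 0.0652. Over all genes 1 passed, against 3 with a variance trend, 3 at an adjusted p below 0.1, 50 with the filter at the median, 9 with that at the 25th percentile and 0 whichever array was left out. With the replicate number as a block (replicate block) 0 passed in limma, with 1236 lower and 302 higher at an unadjusted p below 0.05. The titles number the samples, no label ties equal numbers together, and the deviations of equal numbers correlated at 0.0967 over genes, so this block is no pairing of the design. It left 5 members lower at an unadjusted p below 0.05. That count of 5 was 3 with the filter at the median, which left 26 members, 2 at an unadjusted p below 0.01 (Fdft1 and Scd1), and 2 to 6 with 1 array left out. It was 2 (Fdft1 and Scd1) without DMSO replicate 1 or JQ1 replicate 1, 6 (with Srebf2) without DMSO replicate 2, and 5 (with Hsd17b7 and without Nsdhl) without JQ1 replicate 2, in fits where the lone array is taken to vary like the other group. The count of higher members was 0 in every alternative. The median change of the members, -0.16, was -0.00051 after quantile normalization, -0.0055 after cyclic loess, -0.04 after median centring and from -0.23 to -0.11 with 1 array left out. Under at least 1 alternative 15 members changed sign, none of them with an unadjusted p below 0.05 in either fit. Centring, quantile normalization and cyclic loess moved the median change of all genes from -0.09 to 0.03, 0.02 and 0.0035. The cause of these shifts was not tested. Faint signals limit Scd1, Ch25h, Cyp7b1, Fdps, Pmvk, Nr1h3 and Abca1.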
